A study of Mus musculus with 3 samples.

Results

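The data describe what happened to the 5-hydroxymethylcytosine (5hmC) profile of mouse embryonic stem cells when the precipitated DNA was hybridised on the array titled with the word IVT, set against the array of the same mark without that word. The members were taken from the titles: 2 of the 3 arrays of the series, 1 for 5hmC with IVT and 1 for 5hmC without it, compared over all 88735 of 88736 probes with a value on both. Both arrays carried DNA from wild-type embryonic stem cells immunoprecipitated for 5hmC, labelled with Cy5, and genomic DNA of wild-type embryonic stem cells labelled with Cy3. The other array of the series carried DNA of the same kind of cell captured with MBD for 5-methylcytosine (5mC), and serves here only to describe the probes. No treatment is named, and the labels used here give neither strain nor sex, passage or clone. The labels do not spell out IVT. In array work these letters commonly abbreviate in vitro transcription, a way to copy small amounts of DNA into many RNA molecules before labelling, but whether that step was meant here is not stated. With 1 array a side no p-value was computed, and every difference below belongs to these arrays and has no replicate check.

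5hmC is made from 5mC by the TET dioxygenases, and mouse embryonic stem cells, which express Tet1 and Tet2, are known for a comparatively high content of it. An antibody against 5hmC pulls down DNA fragments rather than single bases, so neighbouring probes are read partly from the same fragments. CpG-dense DNA that lacks methylation, as at many promoters, is known to carry little of either modification.

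The values are the authors' processed numbers, of the kind that a logarithm of the Cy5 to Cy3 ratio gives. The labels state neither the base of the logarithm nor the centring, so values are printed as deposited, and slopes and ranks are used in place of fold changes. By the dyes in the labels, precipitated DNA is likely the numerator of the ratio, so that high values would mark enriched probes. Probes are named by number, and their genes and positions were not analysed here. Probes with consecutive numbers are called neighbours, and an unbroken series of such numbers is called a run.

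With probes ordered by 5hmC, the IVT medians climbed more than the 5hmC medians at the lowest levels and less above them. Probes were put in 10 equal groups (deciles) by their 5hmC value. From the lowest decile to the highest, the median on the IVT array was -2.34, -1.26, -0.80, -0.65, -0.54, -0.43, -0.33, -0.18, 0.02 and 0.39. The same deciles had medians on the 5hmC array of -1.82, -1.33, -0.87, -0.47, -0.12, 0.17, 0.50, 0.87, 1.32 and 2.03. From decile 1 to decile 5 the IVT median thus climbed by 1.80, against 1.70 on the 5hmC array, a step of 1.06 on the IVT array per unit of 5hmC. From decile 6 to decile 10 it climbed by 0.82, against 1.86 on the 5hmC array, a step of 0.44 per unit. On the low side the climb was uneven. From decile 1 to decile 3 the IVT median went from -2.34 to -0.80, against -1.82 to -0.87 on the 5hmC array. From decile 3 to decile 5 it went from -0.80 to -0.54, against -0.87 to -0.12. In this order the IVT median therefore climbed more than the 5hmC median only at the lowest deciles, and less from decile 3 upwards. In deciles of 5mC it climbed less at the lowest deciles too. From decile 1 to decile 3 of 5mC the IVT median went from -1.62 to -0.88, against -1.58 to -0.59 for 5hmC.

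The narrowing of the high side was mainly one of the relation between the arrays and less of the width of the IVT values as such. The distance from the median to the 95th percentile was 1.976 on the IVT array and 2.003 on the 5hmC array, a ratio of 0.986. The distance from the 5th percentile to the median was 2.66 on the IVT array and 1.85 on the 5hmC array, a ratio of 1.44. The IVT array thus spread its probes as widely above the middle as the 5hmC array did, but placed other probes there. The reverse order gave the mirror image on the high side. In deciles of the IVT value, the IVT median went from -0.39 in decile 6 to 1.44 in decile 10. The 5hmC median of the same deciles went only from 0.22 to 0.94. On the high side the smaller climb thus fell to the array that did not set the order, whichever it was. Within the highest 5hmC decile the middle 50% of probes lay between -0.24 and 1.08 on the IVT array, and between 1.79 and 2.39 on the 5hmC array that set the decile.

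A probe's own 5hmC value includes its measurement error, which flattens any slope taken against it. The order was therefore also set by the mean 5hmC value of the neighbours on both sides, leaving out the probe itself, for the 41985 probes that have both. The neighbours were read on the same 5hmC array, so this order does not remove any error that nearby probes of that array share. On this scale the high side of the IVT array was nearly level. Its medians from decile 6 to decile 10 were -0.27, -0.22, -0.19, -0.15 and -0.07, a climb of 0.20. The same probes had 5hmC medians of 0.37, 0.66, 0.92, 1.22 and 1.58, a climb of 1.22. Their 5mC medians climbed by 0.53 over the same deciles, from an array whose values had the smallest SD of the 3, at 1.02 against 1.33 on the IVT array and 1.18 on the 5hmC array. On the low side the climb from decile 1 to decile 5 was 2.07 on the IVT array and 1.79 on the 5hmC array, and 5mC climbed by 1.31. The step of the IVT array per unit of 5hmC was thus 1.16 on the low side and 0.164 on the high side. With deciles set by 5mC, from an array outside the comparison, the high-side step was 0.51. The low-side step came mainly from the lowest deciles. From decile 3 to decile 5 the IVT median went from -0.65 to -0.34, against -0.68 to 0.08 for 5hmC.

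**Figure D1:**
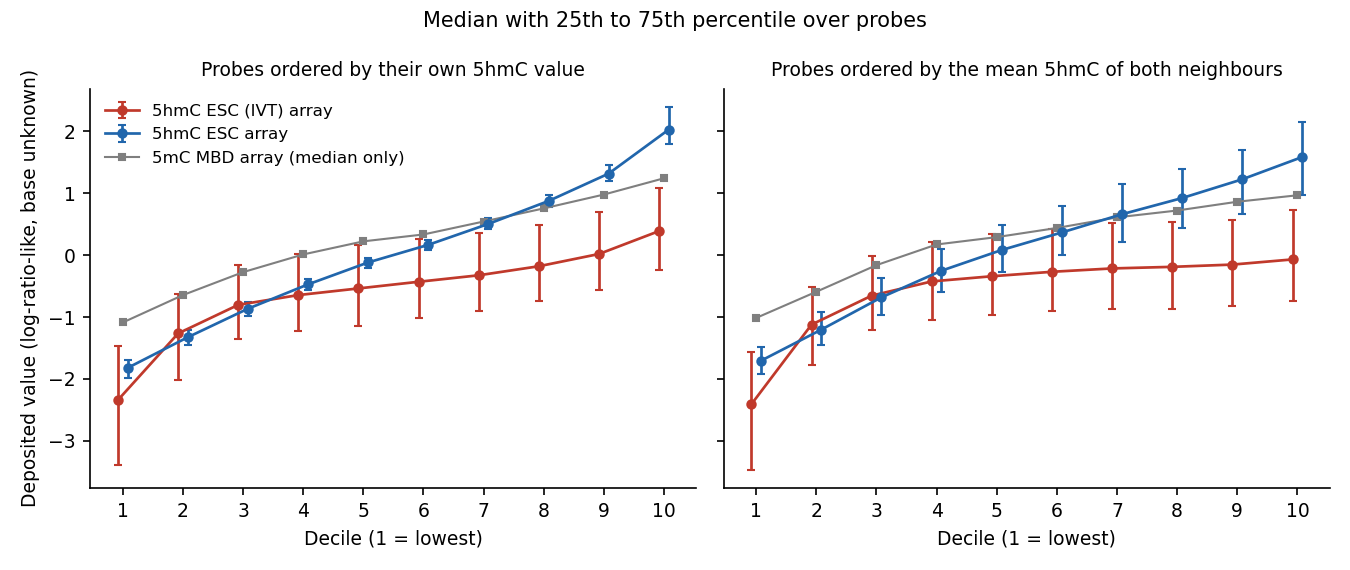
Deposited values by decile of 5hmC, with deciles set by each probe's own 5hmC value (left) or by the mean 5hmC value of its neighbours (right); points are medians, and bars run from the 25th to the 75th percentile over probes for the IVT array (red) and the 5hmC array (blue), with the 5mC median in grey. In the right panel the IVT medians lie between -0.27 and -0.07 from decile 6 to decile 10, while those of 5hmC climb to 1.58.

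Above the middle, the IVT array also had little agreement between its own neighbours. Among the 20991 probes whose neighbours had a mean 5hmC value above 0.15, its median, the IVT value of a probe correlated with the mean IVT value of its neighbours at r = 0.148. On the 5hmC array the probe and its neighbours correlated at 0.449 there. Among the 20991 probes below 0.15 the IVT value correlated with its IVT neighbours at 0.791, and the 5hmC value with its 5hmC neighbours at 0.746. The IVT array was therefore as coherent along the probe order as the 5hmC array on the low side and much less so on the high side. These are correlations across probes of single arrays, whose points share a hybridisation and overlapping fragments, and they are given as descriptions.

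Above the middle the arrays agreed at the same probe and hardly with its neighbours. For these probes the IVT and 5hmC values of the same probe correlated at 0.426, while the IVT value correlated with the 5hmC value of the neighbours at 0.072. For 5mC these correlations were 0.432 with 5hmC at the same probe and 0.190 with 5hmC at the neighbours. The probes were chosen by the neighbours' 5hmC, which limits its range and lowers both correlations with the neighbours. The highest 10% of 5hmC probes showed the same weak relation of IVT to the neighbours. Those with both neighbours were split into quartiles by the neighbours' 5hmC, whose medians were 0.58, 1.18, 1.62 and 2.21. The IVT medians of these quartiles were 0.41, 0.43, 0.44 and 0.40, so a high probe among high neighbours had no higher IVT value than a high probe among moderate ones. Across these 4878 probes r of the IVT value was 0.129 with the probe's own 5hmC and 0.0072 with that of its neighbours, while r of 5mC with the neighbours' 5hmC was 0.125. At the low end the neighbours did matter. In the lowest 10% of 5hmC probes the IVT medians by quartile of the neighbours' 5hmC were -2.76, -2.53, -2.28 and -1.91, with r = 0.198 over 3798 probes.

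Counting by rank, low probes kept their place more often than high ones. Of the 8874 probes in the highest 10% of 5hmC, 28.2% were in the highest 10% of the IVT array, and 15.3% (1359 probes) lay below the IVT median. Of the 8873 probes in the lowest 10% of 5hmC, 56.7% were in the lowest 10% of the IVT array, and 6.77% (601 probes) lay above the IVT median. By quintiles, 40.5% of the highest 5hmC quintile and 59.2% of the lowest 5hmC quintile stayed in the same quintile of the IVT array. The middle quintile was spread over the whole IVT range, with 12.6%, 23.6%, 23.1%, 21.4% and 19.3% of its probes in IVT quintiles 1 to 5. When the highest decile was set by the neighbours' 5hmC, the share below the IVT median was 32.0%, against 15.3% by the probe's own value. A fall of a high probe far below the IVT median was rare. Of the 8874 high probes 27, or 0.304%, were more than 2 robust SDs below it, against 6.56% of all probes.

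Below -2.25 the IVT array spread out probes that the 5hmC array placed close together. Few 5hmC values lay below -2.25, and the 5hmC array had 87 probes more than 2 robust SDs below its median. The IVT array had 5819 such probes, all below -2.745, and their number per step of 0.25 stayed between 596 and 717 from -4.75 up to -3. This level stretch held no counterpart on the 5hmC array. The share of probes in this low tail depended on the 5hmC level in a narrow window. It was 1.25% for 5hmC values from -0.25 to 0, 3.41% from -1 to -0.75, 8.43% from -1.25 to -1, 18.5% from -1.5 to -1.25, 32.1% from -1.75 to -1.5 and 45.5% from -2.25 to -2. It was 49.3% from -2.5 to -2.25, and 36.2% for the 116 probes below -2.5, so at no 5hmC level in these steps were most probes in the tail.

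**Figure D2:**
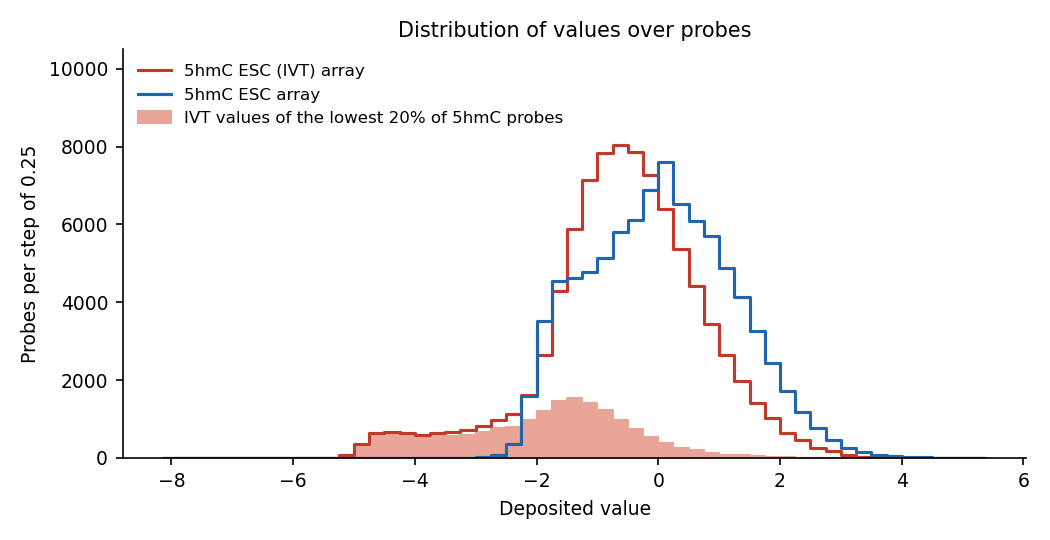
Number of probes per step of 0.25 in the deposited value, for the IVT array (red line) and the 5hmC array (blue line), with the IVT values of the lowest 20% of 5hmC probes filled. The IVT array has a level stretch from -4.75 to -3 with 596 to 717 probes per step, where the 5hmC array has at most 5.

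The 5mC values of low probes inside and outside the tail were close. In the lowest 5hmC decile 3490 probes were in the IVT tail, with a median of -3.67 on the IVT array, and 5383 were not, with a median of -1.65. These IVT medians follow from the split by IVT value, and the decile limits the 5hmC values, whose medians were -1.86 in the tail and -1.80 outside it. The 5mC medians, which the split did not use, were -1.13 in the tail (interquartile range -1.53 to -0.55) and -1.05 outside it (-1.47 to -0.37), 0.071 apart.

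By run, the tail was concentrated in few runs and divided most of those it touched. Of the 6450 runs of at least 5 probes, 5802 (89.95%) had no probe in the tail, 331 had under 50% of their probes there, 126 had at least 50% but not all, and 191 (2.96%) lay in it entirely. Among the 645 runs with the lowest 10% of mean 5hmC, 141 (21.9%) were entirely in the tail, 236 (36.6%) had some but not all probes in it, and 268 (41.6%) had none. The median run mean on the IVT array was -4.12 for the runs entirely in the tail, -2.59 for the divided ones and -1.39 for those with none, an order that the choice of the sets fixes. Their 5mC run means had medians of -0.79, -0.90 and -0.85, so on 5mC the runs entirely in the tail were not the lowest.

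Run by run, the arrays agreed better than probe by probe within runs. For the 14403 runs of at least 3 probes the run means correlated at 0.656 between the IVT array and the 5hmC array, and the deviations of the 70791 probes from their run mean at 0.337. For 5mC with 5hmC the corresponding values were 0.816 and 0.393, and for IVT with 5mC 0.578 and 0.215. The SD between run means was 1.12 on the IVT array and 1.03 on the 5hmC array. The SD of probes within runs was 0.80 on the IVT array and 0.62 on the 5hmC array, so that between-run over within-run SD was 1.41 with IVT and 1.67 without. The agreement between run means was highest among the low runs. Runs of at least 5 probes were put in quintiles by their mean 5hmC, and within the quintiles, from lowest to highest, the run means correlated at 0.479, 0.215, 0.053, 0.063 and 0.167. The correlation of deviations within runs did not decline with the level, at 0.342, 0.258, 0.298, 0.364 and 0.413. These quintiles limit the range of 5hmC, which lowers any correlation of run means within them. In the same quintiles the run means of 5mC and 5hmC correlated at 0.608, 0.424, 0.256, 0.209 and 0.314.

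Quintiles of runs by mean 5mC, an array that neither side of the comparison used, also had the highest agreement of run means in the lowest quintile, but the lowest agreement in the highest quintile instead of quintiles 3 and 4. From the lowest to the highest 5mC quintile the correlation of run means between the IVT and 5hmC arrays was 0.579, 0.462, 0.311, 0.290 and 0.241. The range of the IVT run means also differed, which bears on these correlations. Their SD was 1.23 in the lowest quintile and 0.46 in the highest, against 0.51 and 0.55 on the 5hmC array. The mean of the run means was -1.65, -0.63, -0.28, -0.13 and 0.06 on the IVT array. It was -1.25, -0.34, 0.27, 0.70 and 1.15 on the 5hmC array. From quintile 3 to the highest 5mC quintile the IVT array thus gained 0.34 and the 5hmC array 0.87.

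Place in a run was visible on the 5hmC array and not on the IVT array. In runs of at least 7 probes the mean 5hmC value grew from the end of the run inwards, at -0.01, 0.13, 0.28, 0.35 and 0.42 for positions 1, 2, 3, 4 and 5 or more counted from the nearer end. The IVT means at these positions were -0.42, -0.46, -0.44, -0.48 and -0.41, with no trend. The 5mC means were 0.27, 0.30, 0.41, 0.44 and 0.46. Position 5 or more exists only in runs of at least 9, so the last steps mix place with run size. In the 960 runs of exactly 7, the 5hmC means from the first probe to the middle one were -0.02, 0.12, 0.26 and 0.28. The SD over probes at each position was between 1.19 and 1.27 on the IVT array and between 1.19 and 1.28 on the 5hmC array, so these are shifts of averages and not of single probes.

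The same was seen when each run was compared with itself. In each of the 6450 runs of at least 5 probes the mean of the first and last probe was set against the mean of its central probes, those left after the outer probes, 1 for every 3 probes of the run rounded down, were taken off each end. On the IVT array the ends averaged -0.51 and the centres -0.54, a difference of 0.04 ± 0.85 (SD over runs), and the ends were lower in 47.8% of runs. On the 5hmC array the ends averaged -0.03 and the centres 0.20, a difference of -0.23 ± 0.65, and the ends were lower in 64.7% of runs. On the 5mC array the difference was -0.09 ± 0.81, and the ends were lower in 54.7%. In the 692 runs of at least 10 probes the difference was -0.05 ± 0.84 on the IVT array, -0.465 ± 0.78 on the 5hmC array, and for 5mC -0.21 ± 0.77. In these longest runs the IVT ends were thus below the centres, whereas the mean difference had been 0.04 in runs of 5 to 6 and 0.07 in runs of 7 to 9.

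The absent rise towards the centre was not limited to low runs. In the highest quintile of runs by mean 5hmC the ends and the centres both averaged 0.074 on the IVT array. On the 5hmC array the ends averaged 1.24 and the centres 1.56, a difference of -0.32. In quintiles 2, 3 and 4 the end-minus-centre difference was -0.002, 0.04 and 0.09 on the IVT array and -0.20, -0.31 and -0.32 on the 5hmC array. In the lowest quintile it was 0.07 on the IVT array and -0.005 on the 5hmC array. With runs ordered by mean 5mC instead, the highest quintile had 0.02 on the IVT array and -0.36 on the 5hmC array. Run by run the differences were still related, with r = 0.332 between the IVT and 5hmC arrays over 6450 runs and r = 0.392 between 5mC and 5hmC. A run with an unusually low end on one 5hmC array therefore tended to have one on the other. Over all runs the average shift was present on the 5hmC and 5mC arrays and not on the IVT array. It was not general for 5mC, whose difference was 0.14 in the lowest quintile by mean 5hmC, with the ends above the centres.

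**Figure D3:**
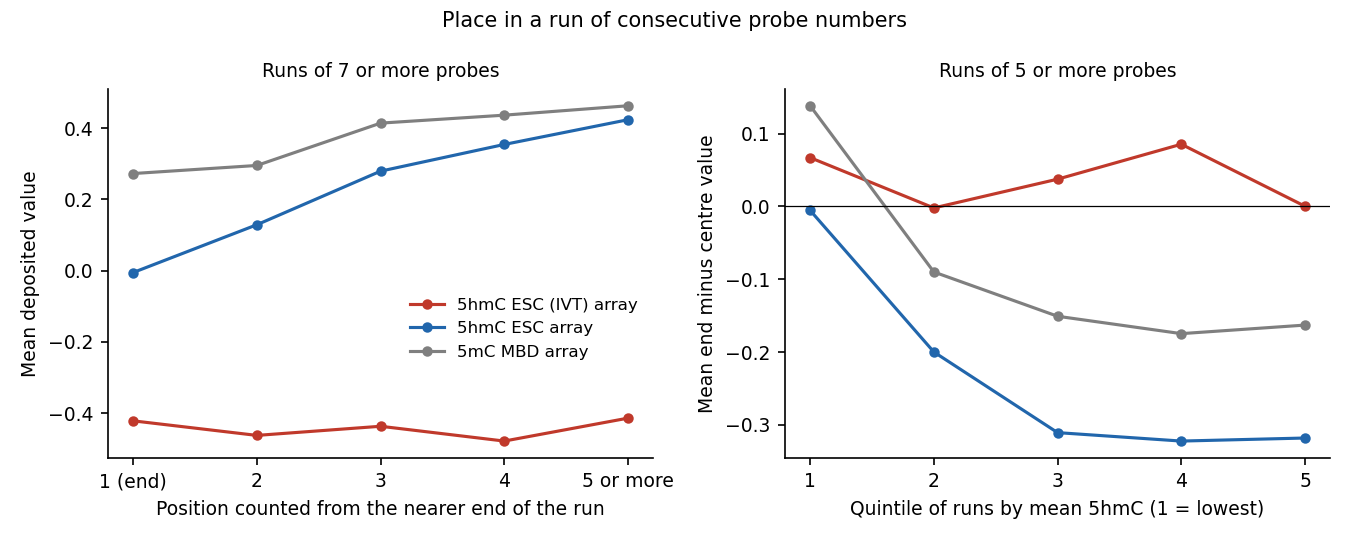
Left, mean deposited value by position from the nearer end in runs of at least 7 probes; right, mean difference of end minus centre by quintile of mean 5hmC in runs of at least 5 probes, for the IVT (red), 5hmC (blue) and 5mC (grey) arrays, with a line at 0. The IVT means stay between -0.48 and -0.41, while the 5hmC means grow to 0.42, and the 5hmC difference reaches -0.32 where that of the IVT array is 0.09 or less.

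Ranks moved with place accordingly. A probe was counted as displaced when its percentile on the IVT array differed from that on the 5hmC array by at least 50 points. Over all probes 3.54% were displaced downwards on the IVT array and 4.45% upwards. In runs of at least 7 probes the downward share was 3.39% at the ends and 5.14% at position 5 or more. The upward share was 7.37% at the ends and 2.98% at position 5 or more, with 4.25%, 2.86% and 2.54% at positions 2, 3 and 4. The end positions thus stood above the share of all probes for upward moves, and the centres above it for downward moves. Only probes in the lower 50% of 5hmC can move up that far, and only those in the upper 50% can move down. The mean 5hmC percentile was 48.9 at the ends and 58.8 at position 5 or more, against 53.2 and 53.0 on the IVT array. These shares therefore partly restate the difference in 5hmC by place. Position 5 or more again holds only runs of at least 9. The correlation between the IVT and 5hmC arrays was also lowest at the ends, at 0.484, against 0.548, 0.587, 0.559 and 0.555 further in.

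The number of neighbours made less difference than the level of 5hmC. Over the 7206 probes without a consecutive-numbered neighbour r between the IVT and 5hmC arrays was 0.519. It was 0.521 in runs of 2, 0.563 in runs of 3, 0.584 in runs of 4, 0.548 in runs of 5 to 6, 0.534 in runs of 7 to 9 and 0.550 in runs of 10 to 23. The highest value was thus in runs of 4. The correlation of 5hmC with 5mC was lowest without a neighbour, at 0.573, and reached 0.635 both in runs of 4 and in runs of at least 10. The low tail had the same maximum. It held 6.94% of probes without a neighbour, 5.52% in runs of 2, 8.14% in runs of 3, 9.996% in runs of 4, 6.14% in runs of 5 to 6, 4.21% in runs of 7 to 9 and 4.25% in longer runs, against 6.56% of all probes. The step of the IVT array per unit of 5hmC on the low side followed it, with 1.05 for probes without a neighbour, 1.28 in runs of 4 and 0.87 in runs of at least 10. On the high side this step was below 0.5 in every class, from 0.405 for probes without a neighbour to 0.482 in runs of 5 to 6.

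High 5hmC probes without neighbours lay below the IVT median more often than those in runs, against 15.3% of all high probes. Of the 587 probes without a neighbour in the highest 10% of 5hmC, 20.6% lay below the IVT median. The share was 17.6% of 898 in runs of 2, 14.9% of 1084 in runs of 3, 15.8% of 1225 in runs of 4, 14.5% of 2048 in runs of 5 to 6, 14.5% of 1877 in runs of 7 to 9 and 13.7% of 1155 in runs of at least 10. High probes were themselves less frequent without neighbours, at 8.15% of probes, than in runs of at least 10, at 14.2%. Probes without a neighbour were also lower as a class. Their IVT median was -0.60, against -0.45 in runs of at least 10, though in runs of 4 it was -0.61. The 95th percentile of their 5hmC values was 1.89, against 2.33 in runs of at least 10. Of all probes without a neighbour 3.87% were displaced downwards and 5.15% upwards by 50 points, and of those in runs of at least 10 it was 4.12% and 4.11%. These shares lie near the 3.54% and 4.45% of all probes.

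**Figure D4:**
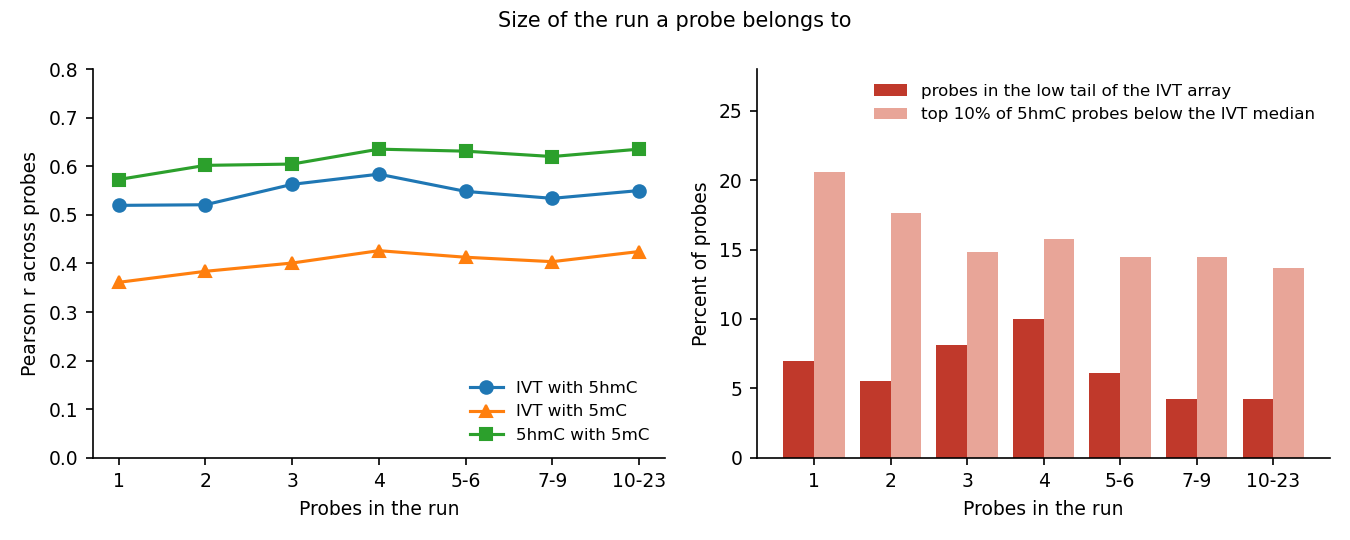
Values by the number of probes in the run: left, Pearson's r across probes between each pair of arrays; right, the share of all probes in the low tail of the IVT array (dark bars) and the share of the highest 10% of 5hmC probes that lie below the IVT median (light bars). The tail share is highest in runs of 4, at 9.996%, and the share of high probes below the median is highest without neighbours, at 20.6%.

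For whole runs, the percentile of the run median was compared between the arrays. Of the 14403 runs, 427 (2.96%) were at least 50 points lower on the IVT array and 452 (3.14%) at least 50 points higher. Both shares were larger in short runs, whose medians rest on fewer probes. In runs of 3 they were 4.04% and 4.79%, and in runs of at least 10 they were 2.17% (15 runs) and 1.16% (8 runs). Of the 2881 runs in the upper 20% of 5hmC, 1180 (41.0%) were in the upper 20% of the IVT array too, 1116 (38.7%) lay between its median and that bound, and 585 (20.3%) lay below its median. Of the 2880 runs in the lower 20% of 5hmC, 2085 (72.4%) were in the lower 20% of the IVT array and 220 (7.64%) above its median.

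The runs that kept a high rank and those that lost it were set apart by their IVT rank, so their IVT and 5hmC medians describe the choice. The 585 high runs below the IVT median had medians of -0.68 on the IVT array and 1.28 on the 5hmC array. The 1180 high runs that stayed high had medians of 0.50 on the IVT array and 1.46 on the 5hmC array. On the 5mC array, which was not used to choose them, the runs that lost their rank had a median of 0.74 (interquartile range 0.39 to 1.08) and those that kept it 0.98 (0.56 to 1.36). The ranges overlapped, and both sets lay above the median of all runs, 0.25. At the low end, the 220 runs that moved above the IVT median had a 5mC median of -0.57 (-0.82 to -0.15), against -0.85 (-1.15 to -0.45) for the 2085 that stayed low. At both ends the 5mC median was thus on the side to which the IVT array ranked the run, by 0.24 among high runs and 0.28 among low runs. Their 5hmC medians differed in the same direction, by 0.19 and 0.39, so the 5mC contrast is not independent of the 5hmC level.

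One run stood apart from all others by being opposite on the arrays. It holds the 6 probes from A_68_P23936881 to A_68_P23936886. On the IVT array their values were -1.87, -8.15, -6.42, -5.89, -4.10 and -5.49. They were 4.66, 4.88, 5.34, 5.23, 5.07 and 4.66 on the 5hmC array. For 5mC they were 4.12, 4.79, 4.80, 4.97, 5.09 and 4.53. The run thus ranked highest of all runs on the 5hmC and 5mC arrays, and lowest of all on the IVT array. Its median was -5.69 on the IVT array and 4.97 on the 5hmC array, a difference of -10.7, and the next lowest difference of any run was -4.33. It held the lowest 4 probes of the IVT array and the highest 3 of the 5hmC array. The lowest IVT value outside it was -5.41 and the highest 5hmC value outside it 4.90. The difference of IVT minus 5hmC was between -13.0 and -6.53 for its probes, and no lower than -6.71 for any other probe of the array.

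On the 5hmC and 5mC arrays the change was abrupt at both borders of the run, and on the IVT array it was not. The 8 probes listed before it had IVT values from -1.48 to 0.39, with a median of -0.93, and 5hmC values from -0.49 to 0.56. The 8 probes listed after it had IVT values from -5.17 to -0.66, with a median of -3.64, and 5hmC values from -2.15 to -1.10. The first probe of the run, at -1.87 on the IVT array, lay close to the last probe before it, at -1.48, and the first 3 probes after the run, at -3.59, -5.17 and -4.46, overlapped the values inside it. The probes after the run were therefore low on both 5hmC arrays, with 5mC values around 0, at a median of -0.06. Their numbers are not consecutive with those of the run, and how far apart they lie in the genome was not analysed here.

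**Figure D5:**
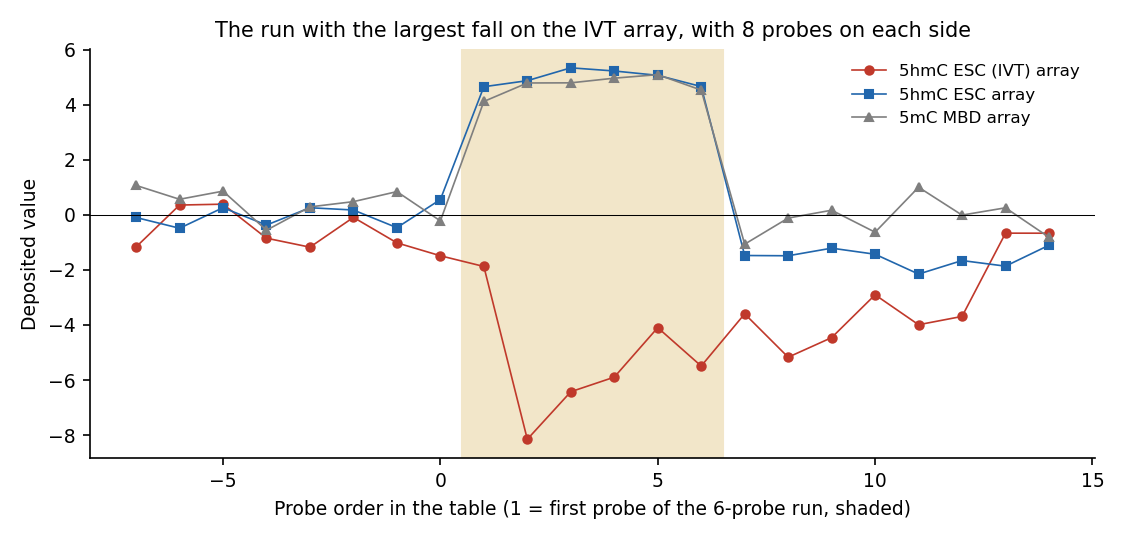
Deposited values of the 6 probes from A_68_P23936881 (shaded) and of the 8 probes on each side in the order of the table, for the IVT (red), 5hmC (blue) and 5mC (grey) arrays. Inside the run the IVT values reach -8.15, while the 5hmC and 5mC values lie between 4.12 and 5.34.

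By percentile the next largest fall was that of a run of 3 probes, and it was less even. In the 3 probes from A_68_P26628952 the IVT values were 0.85, -2.05 and -1.87, against 0.997, 2.27 and 1.60 on the 5hmC array. The first probe was high on both arrays, and the other 2 placed the run at percentile 10.7 on the IVT array and 93.9 on the 5hmC array. The 5mC values were 0.19, 0.30 and 1.40, at percentile 55.0.

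In the opposite direction, the 4 probes from A_68_P28974205 had IVT values of 1.61, 1.93, 0.93 and 0.50, against -1.81, -1.80, -1.70 and -1.46 on the 5hmC array. All 4 were above 0 with IVT and below -1.4 without it, which put the run at percentile 99.01 on the IVT array and 5.36 on the 5hmC array. Its 5mC values were -0.95, 0.14, -1.53 and -0.77, at percentile 9.57. The 4 probes from A_68_P31621017 had IVT values of -0.06, 1.12, 1.61 and -1.33, against -2.19, -2.33, -2.23 and -1.46 on the 5hmC array. Only the middle pair was high on the IVT array. Its 5mC values were -0.83, -1.37, -2.89 and -1.005, at percentile 3.94. Both runs were thus low for 5mC as well as for 5hmC.

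The runs that held the top rank on both arrays kept less of their level. The 4 probes from A_68_P24053341 had IVT values of 2.55, 1.75, 1.63 and -1.15, against 2.74, 2.46, 2.64 and 1.04 on the 5hmC array, and 5mC values of 1.74, 2.77, 1.35 and 0.05. The fourth probe was the lowest on each array. The 4 probes from A_68_P24543638 had IVT values of 2.64, 3.03, 0.63 and 0.08, against 3.44, 1.15, 3.57 and 2.35 on the 5hmC array. Here the order of the probes differed, and the second probe was the highest on the IVT array and the lowest on the 5hmC array. The SD over probes in these runs was 1.61 and 1.46 on the IVT array, close to the run medians of 1.69 and 1.64, and 0.79 and 1.13 on the 5hmC array, under medians of 2.55 and 2.89.

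Along the order of the table, the last 2735 probes were lower on the IVT array than all others pooled. Other stretches of this size are not given for comparison, so how unusual the shift is remains unknown. Their median was -0.96 on the IVT array and 0.05 on the 5hmC array, against -0.52 on the IVT array and 0.02 on the 5hmC array for the 86000 probes before them. Within them 7.75% of probes were displaced downwards by 50 points and 1.94% upwards, against 3.40% and 4.53% before. Of their 451 runs 46 (10.2%) were at least 50 points lower on the IVT array and 6 (1.33%) higher, against 2.73% and 3.20% of the 13952 other runs. The tail share was no larger there, at 6.73% against 6.55%. The step per unit of 5hmC was 0.81 on the low side and 0.54 on the high side, so the low side was still the steeper one.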

How the data were processed

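The authors deposited 1 table with a processed value for each probe and array, which has no stated unit and is treated as a score: its numbers have both signs and resemble log ratios. For normalization, log base, centring, software and build, the entry is: not given in the sources used here. Without intensities the signal over background is unknown, and precision is limited by the number of arrays. Values were used as deposited (Python 3.11.15, pandas 2.3.3, numpy 2.4.6, figures with matplotlib 3.10.9), without a filter other than a value on both 5hmC arrays. A robust SD is the scaled median absolute deviation, and the low tail lies more than 2 of them below the median. A percentile is a rank within an array, over probes or over runs of at least 3 probes. Runs were named by their first probe: the 2 with the largest percentile difference each way and the 2 with the highest rank on both arrays. The measures were chosen with earlier results of these data known. No test was made, some procedures were tested on simulated data, and the alternatives are given in the closing section. For the step by neighbours, the simulation required recovery only with 5hmC values nearly free of noise, a setting that these data need not meet. Probes are not replicates, and no gene names were used.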

Additional observations from a re-analysis of the deposited data

How the results depend on the processing

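Of 56 alternative values for the 12 main results, 42 stayed within set bounds, and none changed sign. The bounds were 10% of the main value, its 95% binomial interval for a share, and 1.5 times for a count of runs. That interval treats probes as independent, which they are not, so it served only as a yardstick here. Leaving out the 6-probe run from A_68_P23936881, an alternative chosen after seeing the data, moved no result beyond these bounds. The step of the IVT array per unit of 5hmC was 0.728 on the low side and 0.51 on the high side with deciles of 5mC, and 0.164 on the high side with deciles of the neighbours' 5hmC. The contrast of the sides was thus smallest by 5mC and largest by neighbours. By 5mC the IVT median climbed less than the 5hmC median on both sides. High 5hmC probes below the median of the IVT array made up 32.0% by neighbours and 11.9% in the highest 5%, and low probes above it 5.12% and 4.62%. The end-minus-centre difference was 0.091 on the IVT array and -0.37 on the 5hmC array where numbers in a run could skip 1, 0.82 and -5.69 percentile points on ranks, and 0.033 on the IVT array without the last 3 blocks of 1000 probes. With runs of at least 5 probes, 171 runs were lower and 212 higher on the IVT array, since 6450 in place of 14403 runs were ranked. For the remaining changes the cause was not tested. No paired analysis was possible because there was 1 array per group, and no replicate could be left out.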
